A study of Mus musculus with 3 samples.

Results

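The Kruppel-like factors described here were Klf2, Klf3, Klf4, Klf5, Klf6, Klf7, Klf9, Klf10, Klf13 and Klf15, 10 genes of the 15394 that had a probe well above background on at least 1 array. They were taken as every probe whose RefSeq transcript, with the version removed, belonged to one of these genes, and each gene had 1 probe with 1 spot per array. All 10 probes were well above background on all 3 arrays. Total RNA came from myofibroblasts, the contractile, matrix-producing fibroblasts of injured tissue, and the study asked how attachment to a stiff surface shapes their gene expression. The cells were the CD45-negative fraction (bead-depleted of white blood cells) of hearts from male C57BL/6J mice, taken 3 days after the left coronary artery was tied off to cause an infarct, with no transgene or deleted gene in any group. The labels give the age as 8 weeks in one field and 10 weeks in another.

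Adherent cells grew on plastic plates, non-adherent cells came from that culture and were moved into suspension on a low-attachment plate, and re-adherent cells were suspended cells put back on plastic. Each stage took about a week, so time in culture and state cannot be told apart, and the study's methods record that many cells died while in suspension. The design text speaks of samples mixed from 3 plates, which may mean 3 plates each, and there was 1 array per state, so no test between states was possible and no p-value is given. Values are processed signals from a one-colour Agilent array, as a percentage of that array's 75th percentile of signal, and differences are on the log2 scale of those values. The error after ± is the technical error that the scanner software gave the 2 spots compared, and it holds no spread between cultures. Levels of different genes cannot be set against each other, because each probe has its own brightness.

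Kruppel-like factors are zinc-finger transcription factors that bind CACCC boxes and related GC boxes, which they share with the Sp factors. Some members activate and others repress the same kind of site, so the balance of members in a cell is thought to matter. In the vessel wall KLF2 and KLF4 are induced by flow through the kinase ERK5 and MEF2 factors and hold endothelium in a quiescent state, while KLF5 promotes smooth-muscle remodelling and growth-factor signalling from cardiac fibroblasts. KLF9 and KLF15 are classical glucocorticoid-responsive genes, and KLF15 restrains fibrosis and hypertrophy in the heart.

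Klf15 and Klf2 were over 2-fold higher in suspended than in adherent cells and Klf5 was over 2-fold lower, and after replating all 3 had gone back the other way by over 2-fold. The other 7 genes stayed within 2-fold at both steps, and at each step 68.1% of all genes did. However, Klf9 passed 2-fold on re-adhesion in 6 of the 12 settings tried, Klf10 without scaling and Klf3 in suspension with spike-in scaling. Settings that changed only filters, dim or outlier spots or the averaging of probes could not alter a member. Each member had 1 probe, well above background on all 3 arrays. Of all 15394 genes, 17.2% were over 2-fold higher in suspension and 14.7% over 2-fold lower, so 2 and 1 of 10 members were close to those shares. These shares are also the background for the gene lists below. On re-adhesion 2 members were over 2-fold lower, where the share of all genes was 16.3%, and 1 was over 2-fold higher, where it was 15.6%. The path of higher and then lower, taken by Klf2 and Klf15, was taken by 13.1% of genes, and the path of lower and then higher, taken by Klf5, by 11.2%. Between re-adherent and first adherent cells no member differed by over 2-fold in either direction, against 4.9% of genes lower and 4.84% higher.

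As a group the members had no common direction. In suspension 5 were higher and 5 lower, with a median difference of 0.22 and a range from -3.73 to 2.70, and the median of all genes was -0.07. On re-adhesion 4 were higher and 6 lower, with a median of -0.43 against 0.08 for all genes. Over the whole cycle 4 were higher and 6 lower, the median was -0.11 against 0.06, and the range narrowed to between -0.72 and 0.49. Scaling to the E1A spike-in probes, added after the data were seen, moved the median of all genes to -0.46 in suspension and -0.42 for re-adherent against adherent cells, and leaving the signals unscaled moved it to -0.28 on re-adhesion, so small differences here depend on what the arrays are scaled to.

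**Figure D1:**
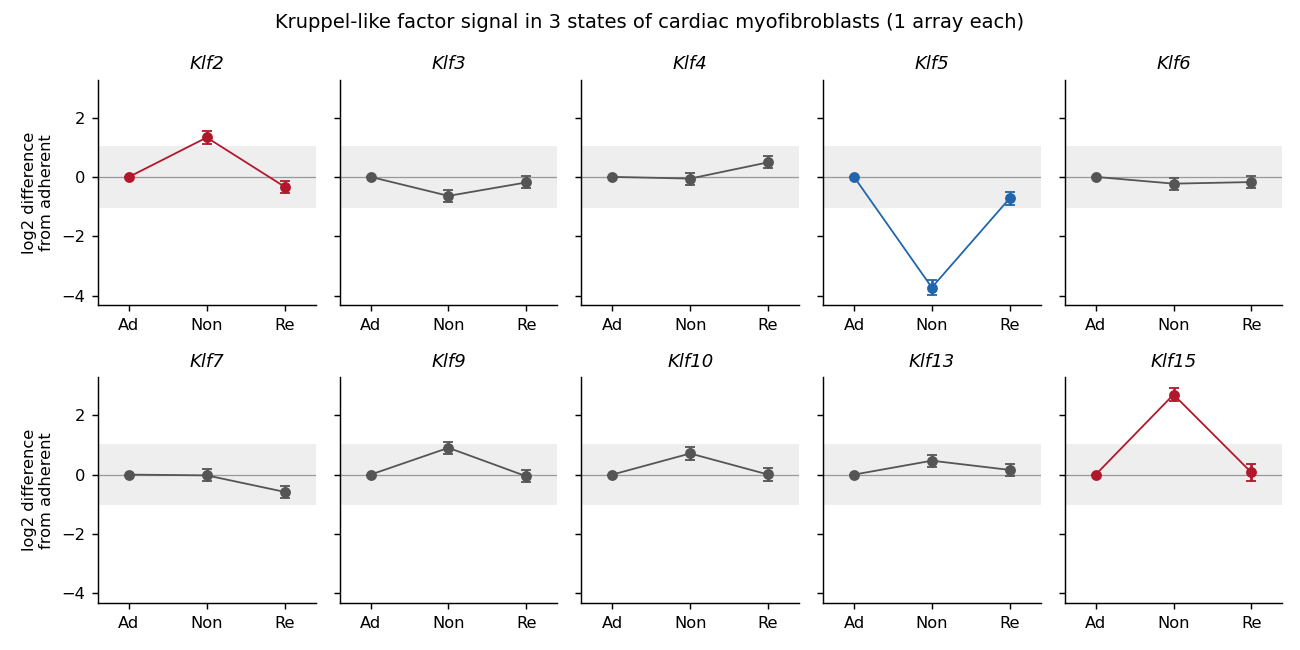
Log2 difference from the adherent array (y axis) of each of the 10 Kruppel-like factors on the arrays of adherent (Ad), suspended (Non) and replated (Re) cells, 1 each. Bars are the technical error of the 2 spots compared and the grey band marks differences within 2-fold. Klf2 and Klf15 (red) peak in suspension at 1.33 and 2.70, Klf5 (blue) falls to -3.73, and all 10 lie within the band after re-adhesion.

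The bases just upstream of the start site are shown for the 3 members with the highest differences in suspension, Klf2, Klf9 and Klf15, and for Klf4, which did not share them. They are the 250 bases before the RefSeq start, on the gene's own strand, in build GRCm38.p6: Klf2 at chr8:72318812-72319061 (plus strand), Klf9 at chr19:23140976-23141225 (plus), Klf15 at chr6:90462326-90462575 (plus) and Klf4 at chr4:55532476-55532725 (minus). Capitals mark every match, on either strand, to 6 short motifs named after the sequences or to the consensus of MEF2 factors, and matches may overlap.
Klf2: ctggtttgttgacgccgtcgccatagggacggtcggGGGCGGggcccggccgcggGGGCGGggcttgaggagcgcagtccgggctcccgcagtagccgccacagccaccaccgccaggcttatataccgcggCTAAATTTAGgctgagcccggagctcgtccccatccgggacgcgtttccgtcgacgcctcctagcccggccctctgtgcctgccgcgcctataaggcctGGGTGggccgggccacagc
Klf9: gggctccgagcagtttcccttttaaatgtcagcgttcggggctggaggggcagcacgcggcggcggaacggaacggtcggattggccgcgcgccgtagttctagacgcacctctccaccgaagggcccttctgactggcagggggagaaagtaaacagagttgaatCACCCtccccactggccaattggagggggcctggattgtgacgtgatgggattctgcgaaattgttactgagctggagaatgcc
Klf15: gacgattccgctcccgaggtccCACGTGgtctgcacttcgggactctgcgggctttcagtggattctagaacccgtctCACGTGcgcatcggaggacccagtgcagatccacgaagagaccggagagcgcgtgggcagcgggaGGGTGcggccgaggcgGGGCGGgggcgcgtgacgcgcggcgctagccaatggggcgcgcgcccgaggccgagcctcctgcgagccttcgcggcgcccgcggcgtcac
Klf4: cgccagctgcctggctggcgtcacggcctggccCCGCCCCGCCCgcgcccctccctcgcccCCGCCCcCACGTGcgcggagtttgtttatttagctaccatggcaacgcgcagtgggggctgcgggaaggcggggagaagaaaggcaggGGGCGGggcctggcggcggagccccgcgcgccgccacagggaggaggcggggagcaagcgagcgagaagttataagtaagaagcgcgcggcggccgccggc
The motif CACCC and the motif GGGCGG are the boxes that Kruppel-like and Sp factors bind, TGACGTCA is the cyclic AMP response element, CACGTG is the E-box of clock factors, AGAACA is part of the glucocorticoid receptor's element and TATAAA is the TATA box. The table used held a promoter for 8 of the 10 members, and Klf5 and Klf10 were not among them.

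The Klf2 window held the MEF2 match, 108 bases before the start, and it was the 1 of the 8 members' windows with one, where 2.92% of all 32851 promoters had one. Klf15 had 2 CACGTG matches, 222 and 166 bases before the start, Klf4 had 1 at 176 bases and Klf6 had 1 at 37 bases, and 6.02% of promoters held one. CACCC stood in 6 of the 8 windows against 52.0% of promoters, and GGGCGG in 7 of the 8 against 32.7%. The count of these boxes ran from 1 in Klf6 and Klf9 to 11 in Klf3, with 3 in Klf2, 2 in Klf15 and 4 in Klf4, Klf7 and Klf13, against a median of 1 over all promoters. The bases G and C made up 59.2% to 78.4% of the 8 windows, against a median of 52.4% over all promoters. No motif share or box count was adjusted for this. No member's window held the cyclic AMP, glucocorticoid or TATA motif, which stood in 1.55%, 16.1% and 12.4% of promoters. A match is a description of letters, and binding was not measured.

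Klf2, the flow-induced factor of endothelium that also holds monocytes and T cells in a resting state, measured 833% of the 75th percentile in adherent, 2093% in non-adherent and 662% in re-adherent cells. The non-adherent array stood above both plated ones, which lay close to each other. Klf2 was 2.51-fold higher in suspension (log2 1.33 ± 0.20) and 3.16-fold lower after re-adhesion (-1.66 ± 0.20), and re-adherent cells lay 0.33 below the first adherent ones. Of all genes, 12.8% were higher by at least as much in suspension and 8.63% lower by at least as much on re-adhesion. With spike-in scaling the suspension difference was 0.94, just inside 2-fold, and over all alternatives it ran from 0.94 to 1.43.

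Klf4, its close relative and one of the reprogramming factors, measured 742%, 713% and 1041% in the same order. Suspension and the first adherent culture were indistinguishable by technical error, at -0.06 ± 0.20, and the sign turned under the authors' values, which gave 0.04. Re-adherent cells stood 0.55 ± 0.20 above non-adherent and 0.49 ± 0.20 above adherent cells, the highest of the 10 members over the whole cycle, and spike-in scaling brought the latter to 0.01. The difference of Klf2 exceeded that of Klf4 by 1.39 ± 0.29 in suspension, and on re-adhesion it lay below it, at -2.21 ± 0.29, both gaps over 4 times their technical error.

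Klf5, which promotes smooth-muscle and cardiac fibroblast activation and is induced by angiotensin and growth factors, measured 70.3% in adherent, 5.30% in non-adherent and 42.6% in re-adherent cells. Suspension was the low state by a wide margin, and the probe remained well above background there. Klf5 was 13.3-fold lower in suspension (-3.73 ± 0.25), which 1.23% of genes matched or passed, and 8.03-fold higher on re-adhesion (3.01 ± 0.25), which 2.99% of genes matched or passed. Re-adhesion undid 80.6% of this log2 difference and left Klf5 0.72 ± 0.21 below its first level. Its processed signal in suspension was 36.9, against 14.0 for the dimmest spot well above background on that array, and with the normexp background correction the differences shrank to -2.36 and 1.77. The direction was the same under all alternatives, and with spike-in scaling the remaining gap to the first adherent cells was -1.21.

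Klf15, the metabolic regulator that governs amino acid breakdown and opposes fibroblast activation, measured 7.38% in adherent, 47.9% in non-adherent and 7.77% in re-adherent cells. The plated states were nearly equal, and suspension stood far above both. Klf15 was 6.49-fold higher in suspension (2.70 ± 0.23), which 3.74% of genes matched or passed, and 6.17-fold lower after re-adhesion (-2.63 ± 0.25), which 2.99% did. Re-adhesion undid 97.3% of the log2 difference, and the difference of 0.07 ± 0.27 that was left changed sign between alternatives, from -0.41 to 0.18. The processed signals on the plated arrays were 48.1 and 42.0, so the size of the change depended on background treatment, with 1.75 and -1.57 after normexp.

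Klf9, the other glucocorticoid-responsive member and a partner of nuclear receptors, measured 246%, 460% and 237%. It took the same path at a smaller size, 0.90 ± 0.20 in suspension and -0.96 ± 0.20 on re-adhesion, just inside 2-fold at both steps, and ended 0.06 below its first level. Both values sat at the threshold. The second step passed 2-fold in 6 of the 12 settings, down to -1.32 without scaling. These 6 were every setting that could alter the value, and the others returned the main one. The first step passed 2-fold in 2 of the 12, the authors' values and no scaling. It was 1.00 in both, so that there Klf9 joined Klf2 and Klf15. The suspension difference of Klf15 exceeded that of Klf9 by 1.79 ± 0.31.

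Klf10, the TGF-beta-inducible early gene, measured 266%, 435% and 266%, higher in suspension and the same on both plated arrays. The differences were 0.71 ± 0.20 in suspension and -0.71 ± 0.20 on re-adhesion (-1.07 without scaling). That of 0.00 between the plated states turned negative in 6 of the 12 settings tried, down to -0.48. These 6 were every setting that could alter it. Klf6, an injury-induced activator of collagen and TGF-beta genes, measured 4580%, 3911% and 4060%. It moved least of the members over both steps, with -0.23 ± 0.20 in suspension and then 0.05 ± 0.20. The sign of this second value was negative in 6 of the 12 settings, which were again all those able to alter it.

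Klf13, a partner of GATA4 in the developing heart, measured 276%, 382% and 308%, and was 0.47 ± 0.20 higher in suspension and 0.31 lower on re-adhesion. Its difference of 0.16 between the plated states was within the technical error and turned negative in some settings, down to -0.32 with spike-in scaling. Klf3, a repressor that recruits CtBP, measured 2270%, 1456% and 1995%, lowest in suspension at -0.64 ± 0.20 and 0.45 ± 0.20 higher again on re-adhesion. Spike-in scaling put its first step at -1.03. Klf7, known in neurons and fat precursor cells, measured 995% and 977% and then 664%, so that the re-adherent array was the low one. Its differences were -0.03 in suspension, with a sign that flipped under the authors' values to 0.07, and -0.56 ± 0.20 on re-adhesion, which left it 0.58 ± 0.20 below the first adherent cells, or 1.07 below with spike-in scaling.

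**Figure D2:**
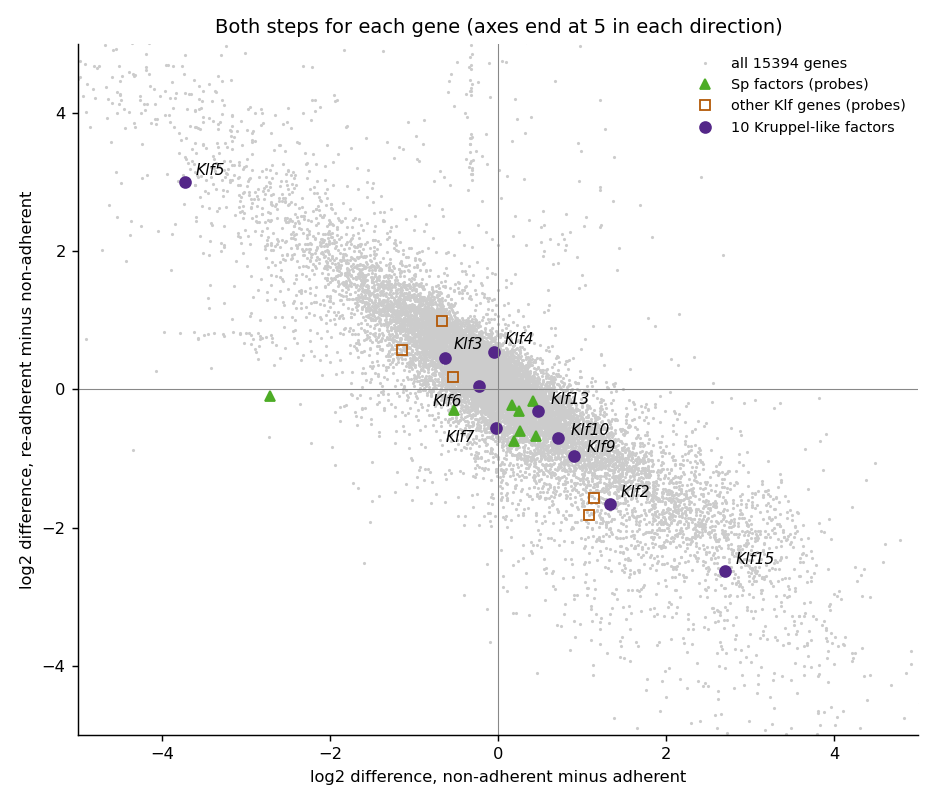
Difference in suspension (x axis, log2 non-adherent minus adherent) against difference on re-adhesion (y axis, log2 re-adherent minus non-adherent) for all 15394 genes (grey), the 10 Kruppel-like factors (purple), other Klf probes (squares) and Sp probes (triangles) well above background on at least 1 array. Both axes use the non-adherent array, with opposite sign, so a falling cloud is built in; Klf5 lies at the upper left, Klf15 at the lower right, and Klf4 and Klf7 lie off the diagonal near the centre.

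By technical error alone, 7 of the 10 members differed by over 2 errors in suspension, 8 on re-adhesion and 3 (Klf4, Klf5 and Klf7) between the plated states. The same count was not made over all genes, so these counts have no background and are not a result about the family. The technical error was about 0.20 for most members, while 265 probes with repeat spots had a median SD of the log2 difference of 0.06 to 0.08 between those spots. Neither figure holds the spread between cultures. The spots around each member on the slide had median scaled differences of -0.36 to -0.16 in suspension, against -0.31 for all spots, and of -0.07 to 0.32 between the plated states, against 0.19. On re-adhesion they ran from 0.08 around Klf9 to 0.62 around Klf15, against 0.35 for all spots, a spread wider than the technical error, and its part in the members' differences was not tested.

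The genes whose path was most like Klf5 over both steps, by Euclidean distance in the 2 log2 differences over 13478 other genes, were Gap43, C1ql3 and Tspan2, and 19 genes lay within the technical error of Klf5. Gap43, a growth-cone protein, had -3.76 and 3.11. Nearest to Klf2 were Gstt1, Arrdc3 and Zfp467, with 97 genes within its error, and nearest to Klf15 were Zpbp2, Psap and Csf2rb2, with 64. Csf2rb2, a cytokine receptor subunit of myeloid cells, had 2.64 and -2.62, and Psap, the precursor of lysosomal saposins, had 2.70 and -2.57. The likeness rests on 3 arrays.

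Among the other genes of the family, Klf8 and Klf11 took the same path as Klf2, with 1.08 and 1.14 in suspension, and neither was well above background in re-adherent cells, so suspension was at least 3.54-fold higher for Klf8 and at least 2.97-fold higher for Klf11. Klf16 was 0.67 lower in suspension and 0.98 higher on re-adhesion, Klf12 was 0.55 lower and then 0.18 higher, and Klf17 was 1.15 lower and then 0.57 higher on the 1 of its 2 probes above background. Klf1 and Klf14 were in no state well above background. Thus 5 of the 7 other Kruppel-like genes were measured, 2 over 2-fold higher and 1 over 2-fold lower in suspension. The shares of all genes were 17.2% and 14.7%.

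The Sp factors bind the same boxes. Of 7 measured, none was over 2-fold higher and 1, Sp5, over 2-fold lower in suspension, and Sp1, Sp2, Sp3, Sp4, Sp6 and Sp8 lay between 0.16 and 0.45, with -0.53 on a second, dimmer probe of Sp2. Sp5 was well above background on the adherent array alone, at least 2.81-fold above the non-adherent one. Sp7 and Sp9 were in no state well above background.

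Upstream of KLF2 and KLF4, the 7 genes of the ERK5 and MEF2 arm were all measured, and 2 were over 2-fold higher in suspension and none lower. These were Mef2c, at 1.88 and then -1.35 on re-adhesion, and Mef2a, at 1.31 and then -1.29, both MEF2 transcription factors. The kinases stayed within 2-fold, with 0.62 for Map2k5, which encodes MEK5, 0.61 for Map3k2 and 0.30 for Mapk7, which encodes ERK5. The median of the arm was 0.61, against -0.07 for all genes. Mef2d, another MEF2 factor, lay the other way at -0.55 and then 0.75. Klf2 had the signs of Mef2a and Mef2c, and not of Mef2d, at both steps, as did Klf9, Klf10, Klf13 and Klf15. Klf4 lay within the technical error of 0 in suspension, and on re-adhesion, at 0.55 ± 0.20, it had the sign of Mef2d.

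Of 11 corepressors and coactivators of the family 10 stayed within 2-fold in suspension, as did 68.1% of all genes. Hdac2, a histone deacetylase, lay at -1.03, and Ctbp2 and Hdac1 at -0.69 and -0.75, while Ctbp1, the other CtBP gene, lay at -0.10. Among 7 ubiquitin ligases that act on Kruppel-like proteins, Wwp1, which targets KLF2 and KLF5, lay at 1.70 in suspension and then -1.83, and Smurf1 lay at -1.22 and then 1.63. Smurf2 followed Smurf1 at -0.89 and 1.34. Protein levels were not measured.

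The glucocorticoid-responsive list, to which Klf9 and Klf15 are related by function, did not move as one. Of 14 genes measured 5 were over 2-fold higher in suspension and 2 lower, with a median of 0.26. Angptl4, an inhibitor of lipoprotein lipase, lay at 2.13 and the metallothionein Mt1 at 1.82, while Errfi1, a brake on EGF receptor signalling, lay at -2.19 and Cebpd at -1.97. Its most used indicator genes were split, Tsc22d3 (GILZ) at 0.88, Zbtb16 at 1.23, Fkbp5 at -0.68 and Per1 at -0.07, and the receptor gene Nr3c1 lay at 0.06.

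Klf2, Klf4, Klf6 and Klf10 also behave as immediate early genes in many cells. Of 19 such genes measured, without the family, 10 were over 2-fold higher in suspension and 3 lower, with a median of 1.03, and -1.15 at the second step. Fosb, Fos and Atf3 lay at 5.42, 3.86 and 3.06, and Fosl1 at -4.40. Klf2 lay near the median of this list and Klf4 and Klf6 below it. Of 15 clock genes 4 were over 2-fold higher and none lower, with a median of 0.20, and they were Bhlhe41 at 2.29, Dbp at 2.13, Hlf at 1.02 and Bhlhe40 at 1.01. Klf9, Klf10 and Klf15 are known clock outputs.

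The TGF-beta list held response genes, of which Klf10 is one, and also the ligand, receptors and Smads of the pathway. Of its 15 genes 3 were over 2-fold higher in suspension and 5 lower, with a median of -0.14. The 3 were the ligand gene Tgfb1 and the receptor genes Tgfbr1 and Tgfbr2, at 1.38 and 1.79. Ccn2, a matricellular protein, lay at -4.10, the inhibitory Smad7 at -2.18 and Tgfb1 at 2.05. Klf10 at 0.71 had the opposite sign to Ccn2 and Smad7 and the same sign as Pmepa1 at 0.27. The 11 smooth-muscle contractile genes, which KLF4 is known to repress in smooth muscle, were all over 2-fold lower in suspension and all over 2-fold higher on re-adhesion, with medians of -5.21 and 4.57. Both medians are the values of Lmod1, which was not well above background in suspension. Its bounds were at least 10.6-fold lower in suspension and at least 6.79-fold higher on re-adhesion. Actg2, Cnn1, Myl9 and Acta2 lay at -9.24, -8.80, -6.80 and -6.64. Klf5 had the signs of this list at both steps, and so did Klf3 at a smaller size, Klf16 and Klf17. The signs of Klf4, Klf6 and Klf12 were not settled, because 1 step of each lay within the technical error. That step was -0.06 ± 0.20 for Klf4 in suspension, and 0.05 ± 0.20 for Klf6 and 0.18 ± 0.22 for Klf12 on re-adhesion. The share of all genes with these signs was not counted.

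Of the 10 vascular genes known to answer to KLF2 and KLF4, 2 were over 2-fold higher in suspension and 3 lower. Nos3, the endothelial nitric oxide synthase that KLF2 activates, lay at 2.86 and then at -2.84, and Edn1, the endothelin gene that KLF2 represses, at -6.42 and then 5.07. Thbd, thrombomodulin, another gene that KLF2 activates, lay the other way at -1.61. Of 11 metabolic genes known to answer to KLF15, 3 were over 2-fold higher and 1 lower, with a median of 0.55. Among the 3 was Pck1, which was not well above background in adherent cells and has a bound of only 1.08-fold. Slc2a4, the insulin-responsive glucose transporter, lay at 1.77, Bckdha of branched-chain amino acid breakdown at 1.52, Bcat2 at 0.71 and Prodh at -1.39. On re-adhesion 2 of the 11, Slc2a4 and Pck1, were over 2-fold lower and none over 2-fold higher, with a median of -0.44. Neither was well above background in re-adherent cells, and Slc2a4 was at least 6.72-fold lower. Bckdha lay at -0.44, Bcat2 at -0.25 and Prodh at 0.59.

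**Figure D3:**
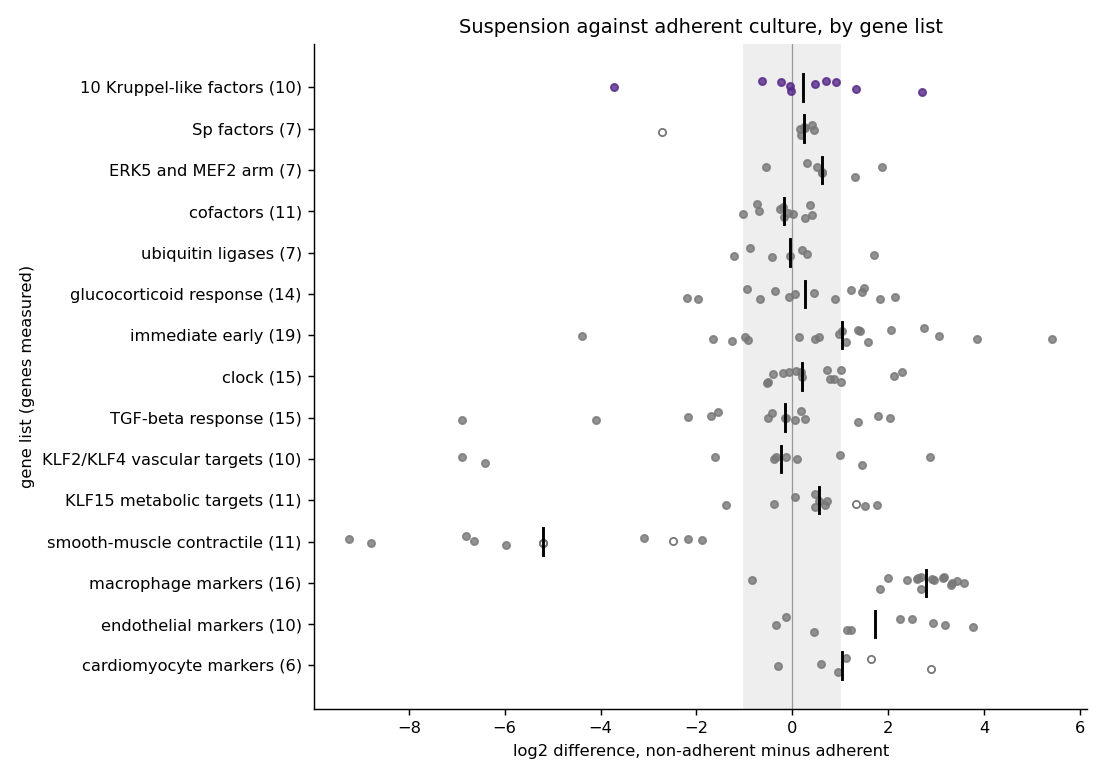
Log2 difference of non-adherent minus adherent cells (x axis) for each gene of 15 lists (y axis, with the number measured). Points are genes, open where the gene was not well above background on both arrays, the black bar is the list's median and the grey band marks differences within 2-fold. The Kruppel-like factors straddle 0 with Klf5 and Klf15 at the ends, the smooth-muscle list lies wholly to the left at a median of -5.21 and macrophage markers lie to the right at 2.80. The smooth-muscle median is the value of Lmod1, an open point.

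Klf2 and Klf4 are also expressed in macrophages and endothelium, and markers of both differed between the states. Of 18 macrophage markers 16 were measured, and 15 of them were over 2-fold higher in suspension, with a median of 2.80 and then -1.66. Their summed signal was 369, 2049 and 619 times the 75th percentile in adherent, non-adherent and re-adherent cells. Such a sum adds probes of unlike brightness, so it follows the brightest ones and is not a measure of cell content. Ptprc, which encodes CD45, was detected in all states and lay at 2.68, and Mrc1, C1qb, C1qa and C1qc lay at 3.30 to 3.58. Of 10 endothelial markers 7 were over 2-fold higher in suspension, with a median of 1.73, then -3.43 on re-adhesion, and a summed signal of 23.8, 38.9 and 22.3. Kdr made up most of that sum on both plated arrays, with processed signals of 9446 and 10321. It lay at -0.35 in suspension and then at 0.74, while 9 of the 10 markers were over 2-fold lower on re-adhesion. The sum on the plated arrays therefore mainly follows Kdr. Cldn5, Tie1, Cdh5 and Vwf lay at 3.77, 3.18, 2.94 and 2.49, and in re-adherent cells 3 of the 10 were not well above background, including Cldn5 and Tie1. Between the plated states the median difference was 1.01 for macrophage and -1.99 for endothelial markers, while Klf2 and Klf15 lay at -0.33 and 0.07. Fewer cells of a type and less RNA per cell cannot be told apart in these pooled cultures, and the part of these cells in the differences of Klf2, Klf9 and Klf15 was not tested.

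Other markers were fewer. Of 9 cardiomyocyte markers 6 were measured, with Pln, Ryr2 and Ttn in no state well above background, and 3 of the 6 were over 2-fold higher in suspension, with a median of 1.04. On re-adhesion 3 were over 2-fold lower, among them Myh6 at -1.13, and 1, Tnnt2, was higher at 1.15. Mb, among the 3 at both steps, was well above background in suspension alone. Its bounds were only 1.48-fold above adherent and 1.12-fold above re-adherent cells. The summed signal of the 6 markers was 1.12, 1.76 and 3.29, and Tnnt2 made up most of it. Of 8 lymphocyte markers 3 were measured, with Cd3d, Cd3g, Cd79a and Ms4a1 among those in no state well above background, and their summed signal of 1.47, 1.46 and 1.84 was nearly all from Cd3e, which lay at -0.16 in suspension. The other measured ones, Cd2 and Cd79b, were well above background in suspension alone, at least 1.68-fold and at least 4.21-fold above adherent cells. All 12 fibroblast markers were well above background in every state, and in suspension 2 were over 2-fold higher and 6 lower, with Acta2, Tagln and Thy1 at -6.64, -5.98 and -3.50 and Lum at 3.56.

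Some genes named here had probes that disagreed. For the endothelial marker Kdr, also in the list of vascular genes, they ran from -0.35 to 1.96 in suspension, for the macrophage marker Itgam from -0.84 to 1.96 and for Nos3 from 2.86 to 3.98. The brightest probe was used. Each of the 10 members had a single probe, so no such check was possible for them.

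**Figure D4:**
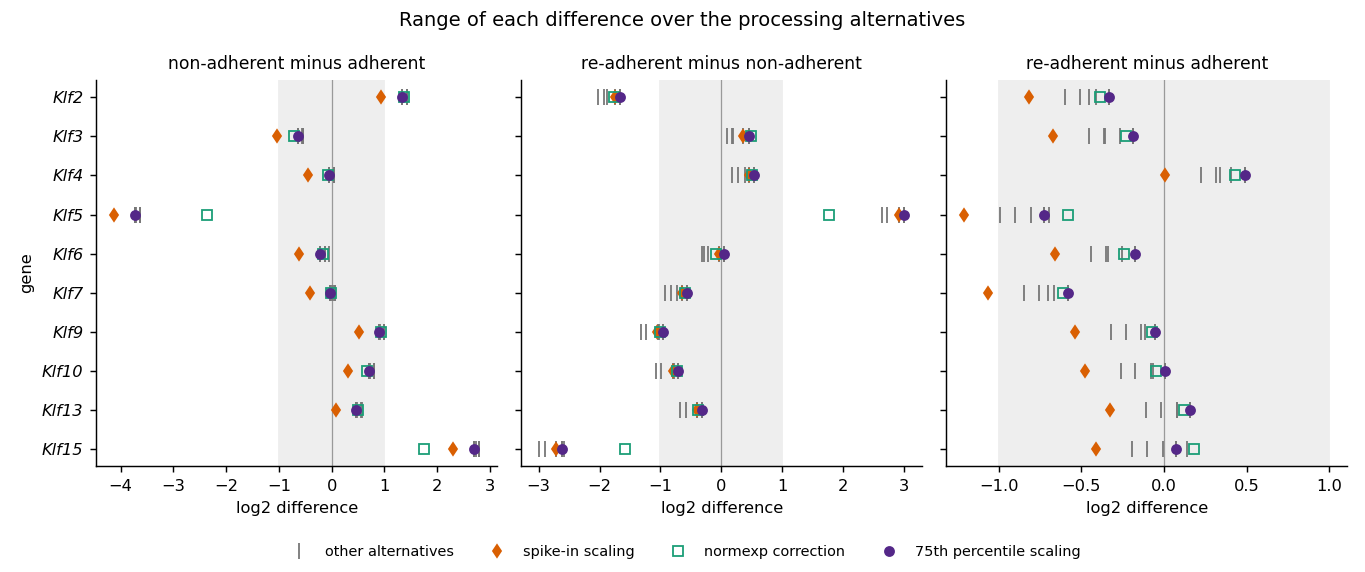
Log2 differences of the 10 Kruppel-like factors (y axis) between each pair of arrays (3 panels), with the value after 75th percentile scaling (circle), normexp background correction (square), spike-in scaling (diamond) and the other alternatives (ticks). The grey band marks differences within 2-fold. Klf2 in suspension runs from 0.94 to 1.43, Klf5 from -4.12 to -2.36 and Klf15 from 1.75 to 2.80, so that Klf5 and Klf15 lie outside the band throughout in both of the first panels.

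In all 12 settings Klf3 and Klf5 were lower and Klf2, Klf9, Klf10, Klf13 and Klf15 were higher in suspension, and all of them went back on re-adhesion. The 12 include the settings that could not alter a member. Signs changed between settings for the small differences of Klf4 and Klf7 in suspension, of Klf6 on re-adhesion, and of Klf10, Klf13 and Klf15 between the plated states.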

How the data were processed

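Total RNA from adherent, non-adherent and re-adherent cardiac myofibroblasts, 1 array each, was labelled with Cy3 and hybridised to one-colour Agilent mouse arrays. Per the file headers the authors scanned the arrays on 1 slide and extracted them with Agilent Feature Extraction 10.10.1.1. The deposited scanner files give each spot's processed signal intensity, already background-subtracted, with its error and flags. The deposited value table holds the same values on a linear scale, multiplied by 1 factor per array (1.52, 1.52 and 1.62), with column medians of 60.8, 61.8 and 50.7. What the factor stands for is not given in the sources used here, and the table served as an alternative.

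Log2 of the processed signal was taken relative to the 75th percentile of its array, over 59305 spots other than controls. Of these spots 53.9% to 59.9% were well above background and none was saturated, and percentiles were 651, 697 and 541. Transcript names were matched to RefSeq genes (21465 of 37881 names; 27229 of 55665 probes had a symbol), and the brightest probe well above background on at least 1 array stood for a gene. A difference was called past 2-fold. With 1 array per state, precision was limited by the number of arrays. A probe not well above background on 1 side has a bound, the bright value over the lowest signal well above background there or the probe's own, whichever was higher.

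The members and all gene lists were chosen with earlier results of these data known. Named list genes were up to 4 per list with the largest difference in suspension, well above background in both states, plus defining markers, and some genes that this rule takes are not reported here. Promoters were 250 bases from RefSeq, GRCm38.p6. The calls were tested on simulated data. Python 3.11.15, pandas 2.3.3, R 4.3.3 and limma 3.58.1 (normexp, offset 50) were used. Alternatives were other scalings, background correction, filters, probes and thresholds. The E1A scaling was added after seeing the data.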

Additional observations from a re-analysis of the deposited data

How the results depend on the processing

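Over the alternatives tried, 92 of 104 counts of Kruppel-like factors stayed within 1.5 times the reported count and 12 moved. Without scaling, 4 members in place of 2 were over 2-fold lower on re-adhesion, and the share of all genes was 23.4% in place of 16.3%. At a 1.5-fold threshold 2 were lower (26.3% of all genes) and 4 higher (25.4%) in suspension, and 4 were lower on re-adhesion (24.8%). At that threshold 1 was lower in re-adherent than in adherent cells (10.8%), and 4 were higher in suspension and lower again (19.8%). At a 3-fold threshold 1 was higher in suspension, as were 1611 of the 15394 genes. At that threshold 1 was higher and then lower, as were 1100 genes. With spike-in scaling, added after seeing the data, 2 were lower (25.6% of all genes) and 1 higher (12.2%) in suspension. With that scaling 2 were lower in re-adherent than in adherent cells (12.5%), and 1 was higher and then lower (11.1%). Of 330 single differences of the members 274 moved by less than the technical error and 56 by more, and none past 2-fold turned in sign. Part of the 274, and of the 92 counts, was fixed in advance. Settings that changed only filters, dim or outlier spots or probe averaging could not alter these single-probe members. Of 594 list medians 468 were the same, 124 moved and 2 reversed, those of the lymphocyte markers, which were -0.16 in suspension and 0.49 on re-adhesion where only genes well above background on all 3 arrays were kept, leaving 1 gene, Cd3e.

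With 1 array per state, leaving out an array left no comparison, and no paired analysis was possible because each state had 1 array. The normexp alternative used median spot signals, since the files give no mean signal. Klf5 in suspension and Klf15 on plastic lay nearest to background, and the sizes of their changes are the least certain.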
